A study of Mus musculus with 8 samples.

Results

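The cell cycle and DNA replication genes considered here are a list of 35 named genes: cyclins, cyclin-dependent kinases (CDKs) and their phosphatases and inhibitors, the proteins that license replication origins, the replication clamp and nucleotide enzymes, and proteins of mitosis. Of the 35, 32 had a probe set that the platform annotation gives to a single gene symbol, and where a gene had several, the one with the highest mean of the 8 arrays stands for it. The other 3, Ccnb1, Bub1b and Tyms, had no such probe set and are not analysed here. The array measured 8251 genes in this way.

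RNA came from CD8+ dendritic cells, a subset specialised in presenting antigen to T cells, purified from the spleens of 60-day-old female DBA/2J mice. All mice had been given 10 µg of Flt3-L, a growth factor that expands dendritic cells, for 9 days, so every group carries that treatment. The cells were then kept in culture for 4 or 16 hours, either in plain medium or in medium with mouse IFN-γ at 200 U/ml, which makes 4 groups, a medium group and an IFN-γ group at each time. Each group holds 2 Affymetrix MG-U74Av2 arrays, labelled replicate 1 and 2. The labels do not say whether replicates came from separate mice or separate cultures. The p-values therefore reflect how far these particular arrays scatter, and that scatter may be technical only. No array measured cells before culture, and the groups therefore compare times in culture and treatments, not cultured with fresh cells.

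A dividing cell passes from G1 through S phase, in which DNA is copied, to G2 and mitosis. In G1, CDC6 and CDT1 load the ring-shaped MCM2 to MCM7 helicase onto origins, and cyclin-CDK pairs then fire those origins. Many genes of licensing and DNA synthesis are switched on by E2F transcription factors at the end of G1, while many genes of mitosis are switched on later through promoter sites called CHR (cell cycle genes homology region), often together with CCAAT boxes. Mature dendritic cells of the spleen are largely non-dividing, but they arise from dividing precursors, which Flt3-L expands.

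The arrays were alike in brightness, with a median intensity between 51.3 and 53.7. The level of unspecific signal was taken as the median of 15 control probe sets that carry antisense sequence, which was 44.9 to 61.2 on the 8 arrays. Of the 32 genes, 26 lay above this level on all 8 arrays. Cdkn1b and Mcm6 lay below it on all 8, so no level or change of these 2 genes can be read from their probe sets, and Ccnd2, Cdc25c, Bub1 and Aurka lay below it on 1 to 7 arrays. Of 11 listed markers of CD8+ dendritic cells, 10 were measured and none lay below the antisense level on all 8 arrays, though Xcr1 did on 7. Clec9a, the marker not measured, had no probe set. None of 7 B cell, 7 T cell and 8 granulocyte markers lay below this level on all 8 arrays either.

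Between 4 and 16 hours in medium, several replication genes fell. Of the 32 genes, 9 were called lower at 16 hours and 0 were called higher (limma, Benjamini-Hochberg adjusted p under 0.05 over all probe sets tested). The 9 were Cdc6, Mcm2, Mcm3, Mcm4, Mcm5 and Mcm7 of origin licensing, Rrm2 of nucleotide supply, Top2a, the topoisomerase that untangles DNA, and Cdkn1a, a CDK inhibitor. They are 28.1% of the 32 genes, where 3.04% of all 8251 genes and 4.68% of the 4825 genes brighter than the antisense controls were called lower. The median log2 difference over the 32 was -0.31 against 0.04 over all genes, and 27 of the 32 were lower. Among all genes 1.61% were called higher. In 23 of the 32 (71.9%) both arrays at 16 hours lay below both arrays at 4 hours, against 24.2% of all genes, and in 2, Ccnb2 and Cdkn1b, both lay above, against 29.8%. Of these 2, Cdkn1b lay below the antisense level on every array.

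With the replicate number as a block in the fit, 14 of the 32 were called lower, against 9.76% of all genes, and 0 higher, against 4.21%. The 14 were the same 9 with Pcna, Rrm1, Tk1, Bub1 and Birc5 added. The count of 9 rests on both 4-hour arrays: without either of them, 0 were called, without replicate 1 or replicate 2 of medium at 16 hours 2 and 5 were called, and without either IFN-γ array at 4 hours, which enters through the shared spread, 5 were called.

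The licensing genes had the lowest median of the 6 roles. All values given per array are log2 intensities, in the order replicate 1 and replicate 2. Mcm3, a helicase subunit, read 8.29 and 8.51 in medium at 4 hours, against 7.30 and 7.65 at 16 hours. This was a log2 difference of -0.92 (SE 0.19, n = 2 arrays per group, 1.90-fold lower, limma adjusted p = 0.0307). The highest 16-hour array thus lay well below the lowest 4-hour array. Cdc6, the loader of the helicase, read 7.01 and 7.17 at 4 hours, against 6.02 and 6.35 at 16 hours. Its log2 difference was -0.90 (SE 0.17, 1.87-fold lower, limma adjusted p = 0.0200).

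Mcm5, another helicase subunit, read 10.02 and 9.92 at 4 hours, against 9.23 and 9.01 at 16 hours. Its difference of -0.85 (SE 0.12, 1.80-fold lower) had the smallest limma adjusted p of the 32 genes, 0.00569. Replicate 1 was the higher array of Mcm5 at both times, unlike Mcm3 and Cdc6, where replicate 2 was. Mcm4, a further subunit, read 8.13 and 8.32 at 4 hours, against 7.22 and 7.56 at 16 hours, a difference of -0.83 (SE 0.17, limma adjusted p = 0.0275). Mcm7 read 8.98 and 8.82 at 4 hours, against 8.27 and 8.17 at 16 hours, a difference of -0.68 (SE 0.12, limma adjusted p = 0.0173). Mcm2 read 8.02 and 7.88 at 4 hours, against 7.24 and 7.32 at 16 hours, a difference of -0.67 (SE 0.11, limma adjusted p = 0.0125). In all 5 of these subunits the groups did not overlap. The 6 called genes are 6 of the 7 licensing genes, whose median difference was -0.83. The seventh, Mcm6, read 3.43 and 3.65 at 4 hours, against 3.69 and 3.58 at 16 hours, below the antisense level throughout.

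Second probe sets bear on 2 of these genes. The dimmer probe set of Mcm3 was also called lower, with a difference of -1.01 (SE 0.18, limma adjusted p = 0.0154). The dimmer probe set of Mcm5 read higher at 16 hours by 0.19 (SE 0.14, limma adjusted p = 0.570), so the 2 probe sets of Mcm5 disagree. In all, 16 further probe sets of the 32 genes were on the array, 9 of them below the antisense level on all 8 arrays, and 2 of the 16 were called lower in this comparison.

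**Figure D1:**
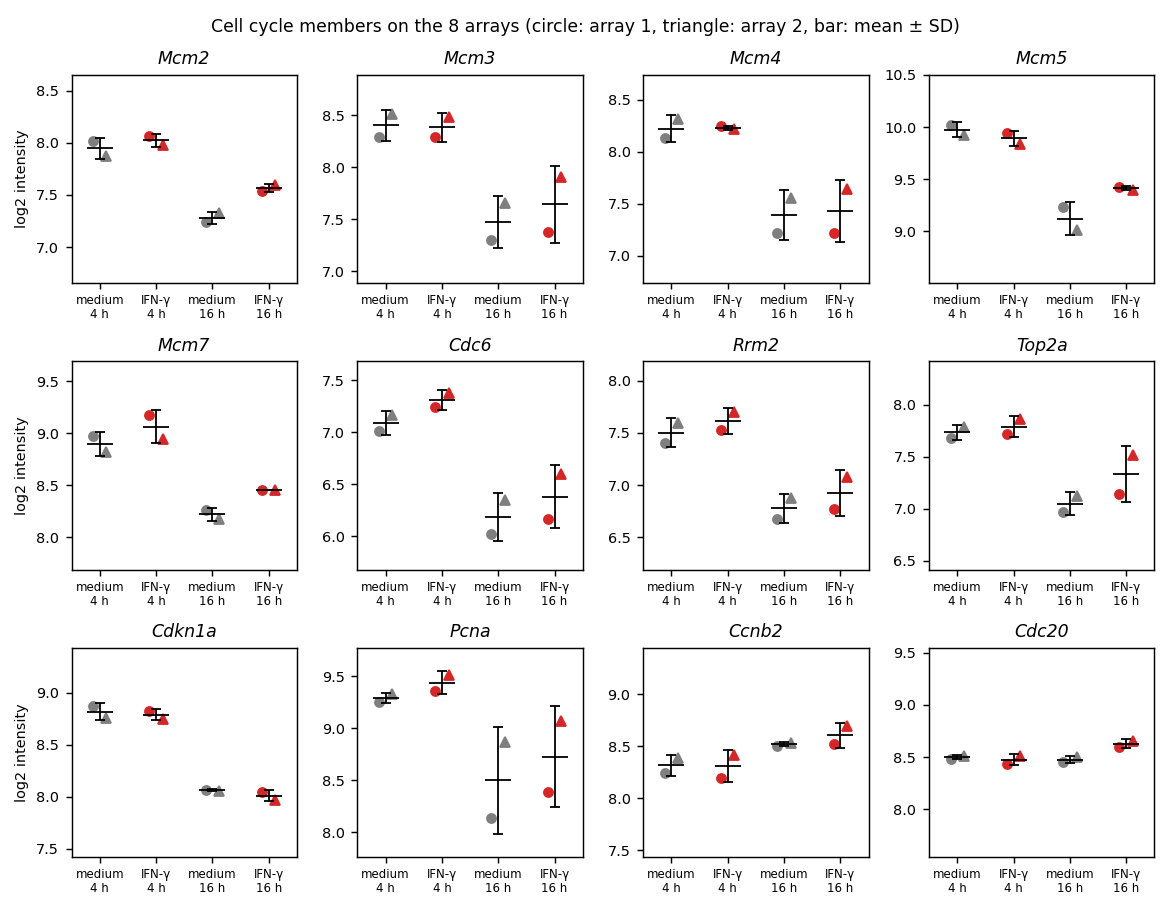
Log2 intensity (vertical axis) of 12 of the genes on each of the 8 arrays, by group, with 2 log2 units shown in each panel. Circles are replicate 1, triangles replicate 2, and the bar and whiskers are the mean ± SD of the 2 arrays; the upper 8 panels and Cdkn1a drop from 4 to 16 hours with and without IFN-γ, Pcna drops with a wide spread at 16 hours, and Ccnb2 and Cdc20 do not drop.

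All 4 measured genes of the fork and of nucleotide supply had lower values, with a median of -0.59, and 1 of them was called. Rrm2, the regulated subunit of the enzyme that makes deoxynucleotides, read 7.40 and 7.60 at 4 hours, against 6.68 and 6.88 at 16 hours. Its difference was -0.73 (SE 0.15, 1.65-fold lower, limma adjusted p = 0.0277). Pcna, the sliding clamp of the DNA polymerases, read 9.26 and 9.32 at 4 hours, against 8.14 and 8.86 at 16 hours. Its difference of -0.79 (SE 0.26) was no smaller than that of Rrm2, but the 16-hour arrays lay 0.73 apart and the limma adjusted p was 0.141, or 0.00928 with the replicate block. Tk1, thymidine kinase of the salvage pathway, read 8.55 and 8.51 at 4 hours, against 8.23 and 8.18 at 16 hours, a difference of -0.33 (SE 0.10, limma adjusted p = 0.126, with the block 0.0368). A second, dimmer probe set of Tk1 lay below the antisense level on 4 of 8 arrays and did not fall. Its difference was 0.02 in medium and 0.10 with IFN-γ (SE 0.13 in each). Rrm1, the partner of Rrm2, had a difference of -0.45 (limma adjusted p = 0.0562, with the block 0.00841). In all 4 genes both 16-hour arrays lay below both 4-hour arrays.

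Of the 2 CDK inhibitors, Cdkn1a encodes p21, a target of p53 that halts the cycle. It read 8.87 and 8.76 in medium at 4 hours, against 8.07 and 8.06 at 16 hours. The difference was -0.75 (SE 0.11, 1.68-fold lower, limma adjusted p = 0.00612), and its second probe set was lower by a log2 difference of -0.98 (SE 0.12, limma adjusted p = 0.00264). The inhibitor and the licensing genes thus both fell. Cdkn1b, which encodes p27, read 3.83 and 3.92 at 4 hours, against 4.08 and 3.95 at 16 hours, all below the antisense level.

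None of the 6 cyclins measured was called in either direction. Ccnb2, a mitotic cyclin, read 8.24 and 8.38 at 4 hours, against 8.51 and 8.53 at 16 hours, the largest positive difference of the 32 genes at 0.20 (SE 0.12, limma adjusted p = 0.469). Ccnd3, a G1 cyclin common in blood cells, read 8.75 and 8.46 at 4 hours, against 8.35 and 8.28 at 16 hours, a difference of -0.29 (SE 0.14, limma adjusted p = 0.375). The other 4, Ccna2, Ccne1, Ccnd1 and Ccnd2, lay between -0.19 and 0.14.

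The 5 CDKs and CDC25 phosphatases were likewise not called. Cdk1, the kinase of mitosis, read 7.99 and 7.87 at 4 hours, against 7.65 and 7.70 at 16 hours, a difference of -0.26 (SE 0.12, limma adjusted p = 0.322). Cdk4, the kinase of the D-type cyclins, read 9.16 and 9.13 at 4 hours, against 8.90 and 8.85 at 16 hours, a difference of -0.27 (SE 0.11, limma adjusted p = 0.235). In both genes the 16-hour arrays lay below the 4-hour arrays. Cdk2, the kinase of S phase, had a difference of -0.32, and the phosphatases Cdc25a and Cdc25c had differences of -0.11 and 0.02.

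Among 8 genes of mitosis, Top2a was called. It read 7.68 and 7.79 at 4 hours, against 6.97 and 7.13 at 16 hours, a difference of -0.69 (SE 0.14, 1.61-fold lower, limma adjusted p = 0.0331). Cdc20, which activates the anaphase promoting complex, read 8.48 and 8.51 at 4 hours, against 8.45 and 8.50 at 16 hours. Its difference was -0.02 (SE 0.10), with a 95% interval from -0.26 to 0.21. Plk1, a kinase of mitotic entry, read 8.14 and 7.93 at 4 hours, against 8.01 and 7.96 at 16 hours. Its difference was -0.05 (SE 0.13), with an interval from -0.35 to 0.25. Both intervals lie above the measured differences of all 6 called licensing genes.

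The remaining mitotic genes lay between these. The checkpoint kinase Bub1 had a difference of -0.44 (limma adjusted p = 0.178, with the block 0.00928) and Birc5, which encodes survivin, one of -0.43 (limma adjusted p = 0.207, with the block 0.0471). Bub1 lay below the antisense level on 7 of 8 arrays, among them every medium array, so its difference does not show whether it changed. Mki67, which encodes the Ki-67 antigen used to mark dividing cells, read 7.49 and 7.70 at 4 hours, against 7.01 and 7.41 at 16 hours, a difference of -0.38 (limma adjusted p = 0.465). The Aurora kinases Aurka and Aurkb both had a difference of -0.23. The median of the 8 was -0.31, against -0.83 for the licensing genes; the difference between these roles was not tested.

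Promoter sequences are shown because the genes that were called lower together include several with E2F words near their start. Among genes with a sequence, 4 of the 8 called lower in medium held such a word, and 4 of the 18 not called. Of the 32 genes, 26 matched a RefSeq promoter window (assembly GRCm38.p6), which runs from 250 bases before to 50 bases after the gene's start, and some had more than 1 start. Each window was searched on both strands for 4 E2F words, TTTGGCGC, TTTCCCGC, TTTGCCGC and TTTCGCGC, for the CHR word TTTGAA and for CCAAT. The words of E2F can overlap each other. In the windows below, written 5′ to 3′ on the strand of the gene, capitals mark E2F words in Cdc6, Mcm3 and Mcm5, CHR words in Ccnb2 and Top2a, and both in Cdk1. A word read on the other strand appears as its reverse complement, such as GCGGGAAA.
Cdc6 (chr11:98907901-98908200, plus strand): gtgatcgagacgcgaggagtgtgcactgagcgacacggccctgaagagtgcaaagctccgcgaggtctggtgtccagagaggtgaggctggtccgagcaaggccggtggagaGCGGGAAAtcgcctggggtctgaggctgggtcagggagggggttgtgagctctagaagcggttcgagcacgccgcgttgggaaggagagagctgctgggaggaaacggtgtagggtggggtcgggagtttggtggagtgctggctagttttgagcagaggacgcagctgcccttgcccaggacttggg
Mcm3 (chr1:20820263-20820562, minus strand): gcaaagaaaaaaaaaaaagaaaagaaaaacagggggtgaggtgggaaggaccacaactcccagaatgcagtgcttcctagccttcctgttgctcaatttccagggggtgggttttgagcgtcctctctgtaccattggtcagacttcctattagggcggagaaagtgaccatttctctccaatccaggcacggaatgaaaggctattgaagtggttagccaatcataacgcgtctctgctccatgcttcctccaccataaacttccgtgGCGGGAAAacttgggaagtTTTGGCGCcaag
Mcm5 (chr8:75109259-75109558, plus strand): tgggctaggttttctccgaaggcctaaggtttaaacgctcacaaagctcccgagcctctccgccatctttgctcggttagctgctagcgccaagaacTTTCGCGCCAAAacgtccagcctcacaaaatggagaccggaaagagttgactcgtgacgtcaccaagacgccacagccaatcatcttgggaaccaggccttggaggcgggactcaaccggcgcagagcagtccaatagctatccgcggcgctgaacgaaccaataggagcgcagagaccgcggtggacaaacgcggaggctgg
Cdk1 (chr10:69352863-69353162, minus strand): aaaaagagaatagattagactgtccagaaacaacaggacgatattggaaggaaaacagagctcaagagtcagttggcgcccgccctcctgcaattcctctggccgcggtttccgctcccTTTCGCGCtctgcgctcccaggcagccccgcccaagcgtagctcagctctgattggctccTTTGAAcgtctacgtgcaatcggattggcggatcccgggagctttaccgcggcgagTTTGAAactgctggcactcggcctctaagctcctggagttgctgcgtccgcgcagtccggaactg
Ccnb2 (chr9:70421505-70421804, minus strand): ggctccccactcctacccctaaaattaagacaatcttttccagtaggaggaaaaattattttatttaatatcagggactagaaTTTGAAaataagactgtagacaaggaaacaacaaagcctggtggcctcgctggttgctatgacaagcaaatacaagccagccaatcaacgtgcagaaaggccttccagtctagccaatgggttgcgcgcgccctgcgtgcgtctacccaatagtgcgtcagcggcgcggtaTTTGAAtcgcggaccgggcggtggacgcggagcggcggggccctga
Top2a (chr11:99024140-99024439, minus strand): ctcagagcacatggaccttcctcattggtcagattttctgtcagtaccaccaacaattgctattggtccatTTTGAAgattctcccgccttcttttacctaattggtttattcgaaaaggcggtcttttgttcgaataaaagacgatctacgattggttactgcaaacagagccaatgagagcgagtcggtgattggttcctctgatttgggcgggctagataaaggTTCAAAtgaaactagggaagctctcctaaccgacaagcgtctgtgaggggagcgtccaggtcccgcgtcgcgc
In Cdc6 and Mcm5 the E2F words lie before the gene's start, and in Mcm3 both lie within the first 50 bases after it. Cdk1 holds an E2F word upstream of a pair of CHR words.

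E2F words were found in 8 of the 26 genes, a gene being counted when any of its windows held one. By window this was 8 of 29, where 2.26% of all 32851 RefSeq windows of this length hold one. The 8 were Cdc6, Mcm3, Mcm5, Mcm6, Mcm7, Cdk1, Cdk2 and Cdc25a, that is 5 of 6 licensing genes with a window, 3 of 4 CDKs and phosphatases, and 0 of 7 genes of mitosis. E2F words were also absent from all 4 genes of the fork and nucleotide supply, the 3 cyclins and the 2 CDK inhibitors with a window. CHR words were also found in 8 genes, and in 8 of the 29 windows, against 17.9% of all windows. Of these 8 genes, 5 were genes of mitosis: Aurka, Cdc20, Mki67, Plk1 and Top2a. CCAAT was found in 20 of the 26 genes, and in 21 of the 29 windows, against 37.4% of all windows. A match is a description of the letters and not a site shown to be bound.

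In medium, 4 of the 8 genes with an E2F word were called lower, Cdc6, Mcm3, Mcm5 and Mcm7, and their 8 differences had a median of -0.50. The 7 genes with a CHR word and no E2F word had a median of -0.23, with Mcm2 and Top2a called. The 11 genes with neither had a median of -0.43. The set with an E2F word includes Mcm6 and the set with neither includes Cdkn1b. Both genes lay below the antisense level on all 8 arrays, so their differences cannot be read. The differences between these sets were not tested. Rrm2 and Cdkn1a, both called lower, held no E2F word in the windows searched.

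With IFN-γ, replication genes were again lower at 16 than at 4 hours. Of the 32 genes, 5 were called lower and 0 higher: Cdkn1a, Cdc6, Mcm4, Mcm7 and Rrm2, all of which were also called in medium. They are 15.6% of the genes, where 1.61% of all genes and 2.47% of those brighter than the antisense controls were called lower and 1.01% of all genes higher. The median difference was -0.35 against 0.04 over all genes. This comparison and that in medium share no arrays, but they share the estimate of spread and are not independent. The differences between replicates correlated between medium and IFN-γ, at 0.587 at 4 hours and 0.740 at 16 hours. In the signs of the measured differences, 25 of the 32 genes were lower in both comparisons, against 32.3% of all genes. Ccnb2, Ccnd1, Cdc25c, Cdkn1b and Mcm6 were higher in both, and Ccnd3 and Cdc20 had opposite signs. Cdkn1b and Mcm6 lay below the antisense level on every array, so their signs cannot be read as a change. In 20 genes (62.5%) the IFN-γ arrays at 16 hours lay below those at 4 hours, against 19.9% of all genes, and these 20 also did so in medium. In Ccnb2, Cdkn1b and Cdc20 they lay above, against 20.8% of all genes, with Cdkn1b below the antisense level throughout.

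With the replicate block, 13 of the 32 were called lower, against 8.07% of all genes, and 0 higher, against 3.38%. Cdk4 was among the 13 (limma adjusted p = 0.0389). Without either IFN-γ array at 4 hours the count of 5 became 0, without either medium array at 4 hours or replicate 1 of IFN-γ at 16 hours it was 1, without either medium array at 16 hours it was 3, and without replicate 2 of IFN-γ at 16 hours it was 10.

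Cdc6 with IFN-γ read 7.24 and 7.38 at 4 hours, against 6.17 and 6.59 at 16 hours, a difference of -0.93 (SE 0.17, 1.90-fold lower, limma adjusted p = 0.0257). Mcm4 read 8.25 and 8.22 at 4 hours, against 7.22 and 7.64 at 16 hours, a difference of -0.80 (SE 0.17, limma adjusted p = 0.0453). In medium these 2 differences were -0.90 and -0.83. Cdkn1a read 8.82 and 8.75 at 4 hours, against 8.05 and 7.97 at 16 hours, a difference of -0.78 (SE 0.11, limma adjusted p = 0.00853). Rrm2 read 7.53 and 7.70 at 4 hours, against 6.77 and 7.08 at 16 hours, a difference of -0.69 (SE 0.15, limma adjusted p = 0.0473). Mcm7 read 9.18 and 8.95 at 4 hours and 8.46 on both arrays at 16 hours, a difference of -0.61 (SE 0.12, limma adjusted p = 0.0385). The groups did not overlap in any of the 5.

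On the probe sets that stand for the genes, the 4 called in medium and not with IFN-γ were Mcm2, Mcm3, Mcm5 and Top2a. Mcm3 read 8.29 and 8.48 with IFN-γ at 4 hours, against 7.38 and 7.90 at 16 hours, a difference of -0.74 (SE 0.19, limma adjusted p = 0.0922, with the block 0.00211). Mcm5 read 9.94 and 9.84 at 4 hours, against 9.43 and 9.40 at 16 hours, a difference of -0.48 (SE 0.12, limma adjusted p = 0.0793, with the block 0.00921). In both genes the 16-hour arrays still lay below the 4-hour arrays. The dimmer probe set of Mcm3 was called lower with IFN-γ as well, by a log2 difference of -0.83 (SE 0.18, limma adjusted p = 0.0487). That of Mcm5 read higher at 16 hours by 0.13 (SE 0.14, limma adjusted p = 0.724). Mcm2 read 8.07 and 7.98 at 4 hours, against 7.54 and 7.59 at 16 hours, a difference of -0.46 (SE 0.11, limma adjusted p = 0.0755, with the block 0.0139). Top2a read 7.72 and 7.86 at 4 hours, against 7.15 and 7.52 at 16 hours, a difference of -0.46 (SE 0.14, limma adjusted p = 0.163, with the block 0.0157). The difference between the fall with and without IFN-γ was tested as an interaction, and none of these 4 passed: it was 0.37 in Mcm5 (SE 0.17) and 0.18 to 0.23 in the other 3, with limma adjusted p of 0.9998 in each. On the dimmer probe set of Mcm5 it was -0.06 (SE 0.20).

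The other genes given by array read as follows with IFN-γ. Pcna read 9.36 and 9.52 at 4 hours, against 8.39 and 9.07 at 16 hours, a difference of -0.71 (SE 0.26, limma adjusted p = 0.231, with the block 0.0186). Replicate 2 was again the higher array at 16 hours. Tk1 read 8.47 and 8.50 at 4 hours, against 8.25 and 8.30 at 16 hours, a difference of -0.21 (limma adjusted p = 0.421). Cdk1 read 8.10 and 8.01 at 4 hours, against 7.59 and 7.80 at 16 hours, a difference of -0.36 (limma adjusted p = 0.176). Both were lower on every 16-hour array. Cdk4 read 9.21 and 9.25 at 4 hours, against 8.80 and 8.95 at 16 hours, a difference of -0.35 (limma adjusted p = 0.149).

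Ccnb2 read 8.20 and 8.41 with IFN-γ at 4 hours, against 8.52 and 8.69 at 16 hours, a difference of 0.30 (SE 0.12, limma adjusted p = 0.320). As in medium, both late arrays lay above both early ones. Cdc20 read 8.44 and 8.51 at 4 hours, against 8.60 and 8.66 at 16 hours, a difference of 0.16 (limma adjusted p = 0.559). Plk1 read 8.28 and 7.99 at 4 hours, against 7.90 and 8.00 at 16 hours, with overlapping groups and a difference of -0.18 (95% interval from -0.48 to 0.12). Ccnd3 read 8.63 and 8.32 at 4 hours, against 8.54 and 8.68 at 16 hours, also overlapping. Of the antisense-level genes, Mcm6 read 3.67 and 3.53 at 4 hours, against 3.82 and 3.46 at 16 hours, and Cdkn1b read 4.03 and 3.94 at 4 hours, against 4.20 and 4.05 at 16 hours.

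**Figure D2:**
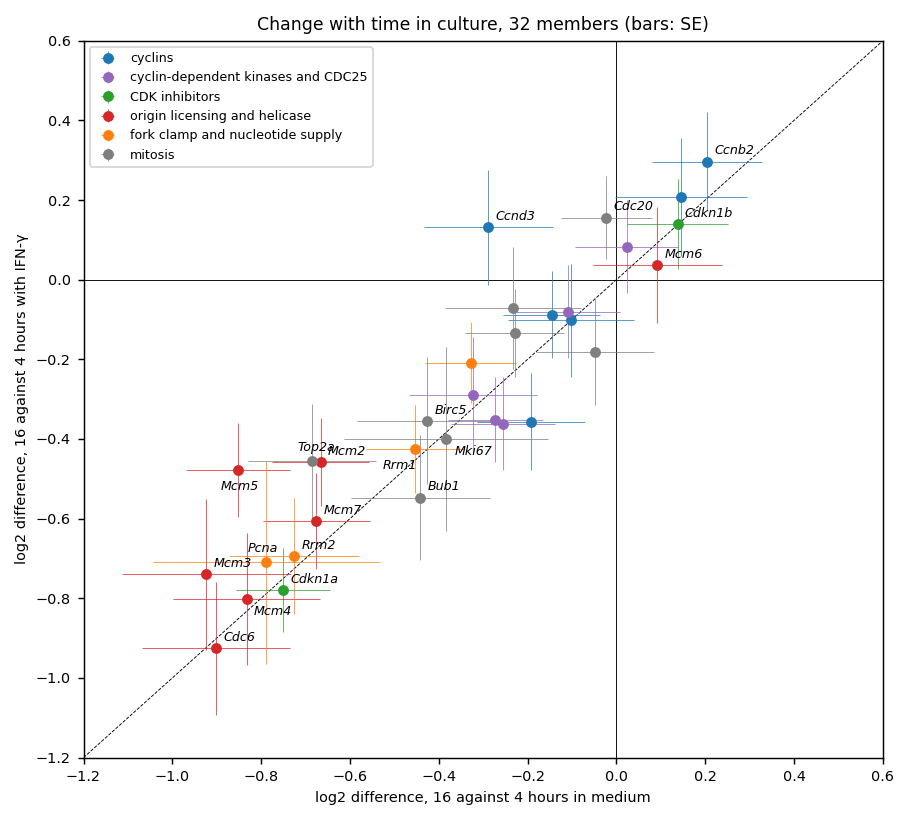
Log2 difference of 16 against 4 hours in medium (horizontal axis) and with IFN-γ (vertical axis) for the 32 genes, coloured by role, with the SE of each as bars and equality as a dashed line. The licensing genes other than Mcm6 lie at the lower left with Rrm2, Pcna and Cdkn1a, with Cdc6 at -0.90 and -0.93, while Ccnb2 lies at the upper right and cyclins, CDKs and most genes of mitosis lie nearer to 0.

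The spread at 16 hours was uneven among these genes. Over all probe sets, the difference between replicates 2 and 1 had an SD of 0.170 in medium at 4 hours and 0.241 at 16 hours, and of 0.176 and 0.311 with IFN-γ. With IFN-γ at 16 hours, 22 of the 32 genes read higher on replicate 2, by up to 0.76 in Mki67, although 43.9% of all genes did. In medium at 16 hours 18 of the 32 did, by up to 0.73 in Pcna. Without both 16-hour arrays of replicate 1, an alternative added after seeing the data, 2 genes were called lower with IFN-γ in place of 5.

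Other properties of the cultures moved with time. In medium 1.61% of all genes were called higher and 3.04% lower at 16 hours, and with IFN-γ 1.01% and 1.61%. Of 12 macrophage markers, 10 were called higher and 1, Spic, lower at 16 hours in medium, and 8 higher and 1 lower with IFN-γ. Their summed intensity was 1775 and 1813 in medium at 4 hours and 4563 and 5372 at 16 hours. With IFN-γ it was 1340 and 1342 at 4 hours and 3329 and 4125 at 16 hours. In medium, Fcgr1 rose by 2.08, C1qa, C1qb and C1qc by 1.94, 2.06 and 1.73, Adgre1 by 1.27 and Cd68 by 1.21, all log2 differences that passed the test, as did those of Lyz2 and Csf1r. Mrc1 and Mertk were also called higher in medium but lay below the antisense level on all 8 arrays. Of 6 erythroid markers measured, the globin genes Hba-a1 and Hbb-b2 were called lower in both time comparisons, while Car1, Klf1, Slc4a1 and Hbb-b2 lay below the antisense level. The summed erythroid intensity was 512 to 517 in medium at 4 hours and 302 to 318 at 16 hours, and with IFN-γ 465 to 490 and 305 to 353. Their part in the lower replication genes was not tested.

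The summed level of the 10 CD8+ dendritic cell markers was 6173 to 6205 in medium at 4 hours and 5278 to 5376 at 16 hours, and 6447 to 6534 and 5438 to 6214 with IFN-γ. Irf8 was called lower in medium and Flt3 with IFN-γ, and with the replicate block 5 and 4 of the 10 were called lower. Of 7 B cell markers 1 was called higher in medium and 2 with IFN-γ, or 3 and 7 with the block, and of 8 granulocyte markers Ngp was called lower in medium. The B cell marker called in medium, Vpreb3, lay below the antisense level on 7 of 8 arrays. Of all genes, 9.76% and 8.07% were called lower with the block, and 4.21% and 3.38% higher, in medium and with IFN-γ. None was called in either time comparison among 7 T cell, 4 NK cell, 4 plasmacytoid dendritic cell, 4 plasma cell, 4 endothelial and stromal markers and 1 megakaryocyte marker. With the block, the T cell markers Thy1 and Cd28 were called lower in medium and Cd28 with IFN-γ, and the NK cell marker Klrd1 and the plasma cell marker Prdm1, which lay below the antisense level, were called higher in medium. The ratio of the 3′ to the 5′ control probe sets of Actb, a measure of RNA integrity, was 2.04 and 2.20 in medium at 4 hours, against 1.63 and 1.57 at 16 hours. With IFN-γ it was 1.47 and 1.65 at 4 hours, against 1.68 and 1.66 at 16 hours. The same ratio for Gapdh was 1.14 and 1.31 in medium at 4 hours, against 0.885 and 0.827 at 16 hours, and with IFN-γ 0.876 and 0.918 at 4 hours, against 0.828 and 0.906 at 16 hours. The part of RNA integrity in the lower replication genes was not tested. In RNA of whole cultures, fewer dividing cells and less of these RNAs per cell cannot be told apart.

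The wider replication and cell cycle machinery was read from 11 lists of genes that are not among the 35, with 132 of 168 genes measured. Each list held at least 1 measured gene that lay below the antisense level on all 8 arrays. In medium, 11 of the 132 were called lower and 1 higher at 16 hours, or 45 and 4 with the replicate block. Of all genes, 3.04% were called lower and 1.61% higher, or 9.76% and 4.21% with the block. All 20 measured genes of the polymerases and the replication fork had a lower value, with a median of -0.43, and 3 were called: Lig1, the ligase that joins Okazaki fragments (log2 difference -0.72, SE 0.12, limma adjusted p = 0.0122), and the primase subunits Prim1 (-0.53, limma adjusted p = 0.0379) and Prim2 (-0.50, limma adjusted p = 0.0485). With the block 14 of the 20 were called. Prim1 lay below the antisense level on 4 of 8 arrays, all of them at 16 hours. Prim2 did on 2, replicate 1 of each 16-hour group. Of 12 genes of origin recognition and firing, 9 were lower and Cdt1, which loads the helicase together with CDC6, was called (-0.48, limma adjusted p = 0.0342), against 5 called lower and 1 higher with the block. Of these 12, Orc1, Orc2, Dbf4 and Gins2 lay below the antisense level on all 8 arrays.

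Among the regulators, 1 of 7 genes of the RB and E2F family was called, Tfdp1, the dimerisation partner of E2F proteins (-0.68, limma adjusted p = 0.0292). Of the 7, E2f3, E2f5, Rb1 and Rbl2 lay below the antisense level on all 8 arrays, so no change can be read from them. E2f1 itself lay below the antisense level on 7 of 8 arrays, so its difference of 0.04 does not show whether it changed. The CDK inhibitor Cdkn2b was called lower (-0.68, limma adjusted p = 0.0322), while the other 5 further inhibitors had higher values and were not called, except Cdkn3 with the block (limma adjusted p = 0.0907 without it and 0.0257 with it). Cdkn1c, one of these 5, lay below the antisense level on all 8 arrays. In the damage and G2 checkpoint list 3 of 12 were called lower, or 5 with the block, with the stress-induced Gadd45b at -1.14 (SE 0.12, limma adjusted p = 0.00204), Brca1 at -0.77 and Gadd45a, like Cdkn1a a p53 target, at -0.52. Of 10 genes of nucleotide synthesis, Gart of purine synthesis was called lower (-0.79, limma adjusted p = 0.00720), against 5 lower and 1 higher with the block. Tacc3 of the spindle was the only one of 24 genes of spindle, kinetochore and cytokinesis to be called in medium without the block (-0.62). This stands against 3.04% of all genes called lower. With the block 6 of the 24 were called lower, against 9.76% of all genes. Tacc3 and Brca1 lay below the antisense level. Mxd4, a partner of MAX that opposes MYC, was called higher (0.51, limma adjusted p = 0.0440), and 2 others of its list of 11 were called lower with the block. None of 14 other cyclins and CDKs, 9 genes of the anaphase promoting complex and securin, or 7 of cohesin and condensin was called without the block, and 1, 2 and 3 of them were called lower with it.

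Second probe sets of these genes did not all pass. That of Gadd45b was called lower as well (-0.96, limma adjusted p = 0.00262), while that of Cdt1 had a difference of -0.43 (limma adjusted p = 0.171, with the block 0.0263) and the brighter of the 2 others of Tfdp1 one of -0.62 (limma adjusted p = 0.166, with the block 0.0139). The second probe set of Lig1 lay below the antisense level on all 8 arrays.

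With IFN-γ, 8 of the 132 were called lower and 1 higher at 16 hours, or 38 and 2 with the block. Of all genes, 1.61% were called lower and 1.01% higher, or 8.07% and 3.38% with the block. The 8 were Prim1, Prim2, Gart, Tfdp1, Cdkn2b, Tacc3, Gadd45b and Mxd1, and the higher gene was again Mxd4 (0.66, limma adjusted p = 0.0234). Of the 20 fork genes 19 were lower, with a median of -0.31, and 8 were called with the block.

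**Figure D3:**
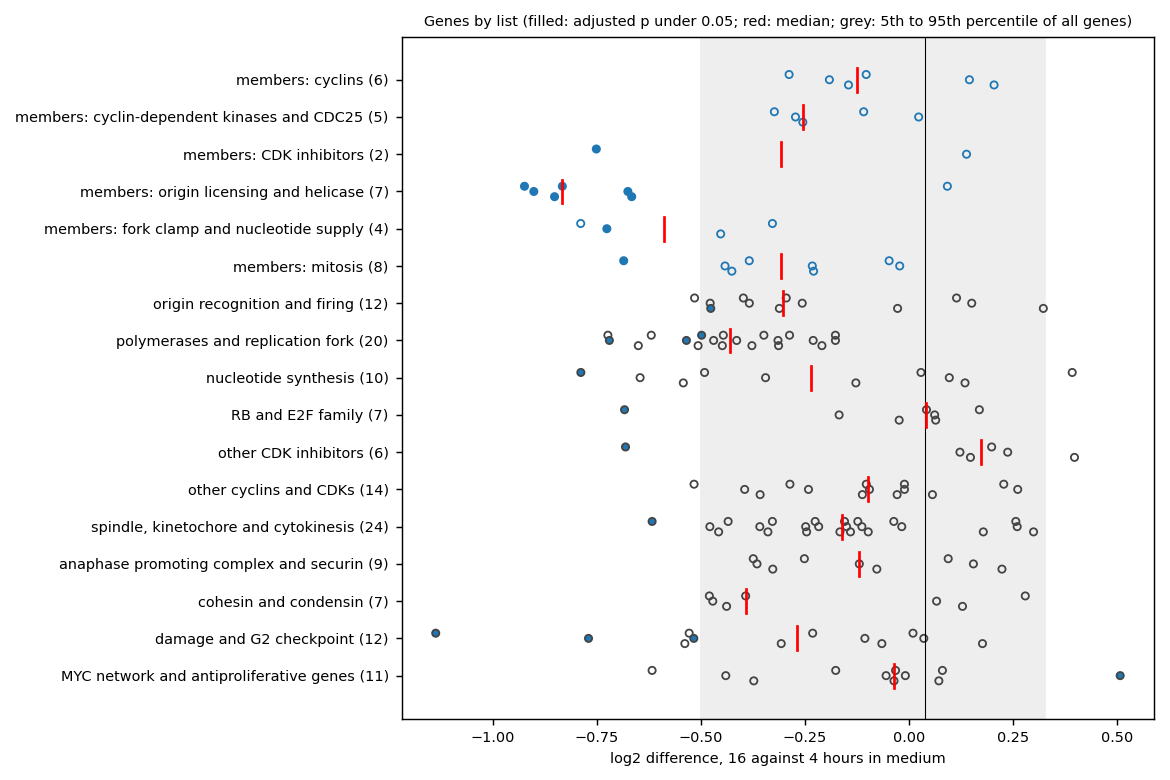
Log2 difference of 16 against 4 hours in medium (horizontal axis) for the 32 genes by role and for 11 further lists, 1 point per gene, with the number measured in brackets. Filled points have an adjusted p under 0.05, red bars are medians, the grey band spans the 5th to 95th percentile of all genes (-0.50 to 0.33) and the black line is their median of 0.04; the licensing genes have the lowest median, -0.83, and all 20 fork genes lie below 0.

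No difference of the 32 genes between IFN-γ and medium passed the test. At 4 hours 0 were called in either direction, where 0.279% of all genes were called higher and 0% lower. At 16 hours 0 were called, against 0.182% and 0.121%. The difference between the effects at 16 and 4 hours was called in 0, as in 0% of all genes. With the replicate block the counts were also 0, where 0.861% of all genes were called higher and 0.218% lower at 4 hours, 0.509% and 0.448% at 16 hours, and 0.109% had a lower effect at 16 than at 4 hours. At an unadjusted limma p under 0.05 there were 1 (Ccnd2), 2 (Mcm2 and Mcm5) and 0 of the 32, against 3.67%, 3.75% and 2.19% of all genes. The 95% intervals of the log2 differences ran from -0.50 (the lower end for Mki67) to 0.72 (the upper end for Pcna) at 4 hours, and from -0.52 to 0.80 for the same genes at 16 hours. The median SE over the 32 was 0.13.

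At 4 hours the median difference, IFN-γ against medium, was 0.05, with 21 genes higher and 11 lower, and the median over all genes was -0.01. With single arrays left out, this median ran from 0.02 to 0.07, without replicate 1 and replicate 2 of medium at 4 hours. Ccnd2, a G1 cyclin below the antisense level on 7 of 8 arrays, had the largest difference. It read 5.36 and 5.35 in medium, against 5.63 and 5.83 with IFN-γ, a difference of 0.37 (SE 0.12, limma adjusted p = 0.651, with the block 0.170). Both treated arrays lay above both control arrays, as in 7 of the 32 genes (21.9%), against 15% of all genes, and 2, Cdk2 and Tk1, lay below, against 19.2%. Cdc6 had a difference of 0.22 (SE 0.17), Mcm7 of 0.17 (SE 0.12) and Cdkn1a of -0.03 (SE 0.11).

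At 16 hours the median difference was 0.12, with 28 genes higher and 4 lower, and the median over all genes was 0.00. It fell to 0.05 without replicate 1 of medium at 16 hours and was 0.17 without replicate 2. These values share the medium arrays at 16 hours with the time comparison in medium, so a low reading there enters both. In 11 genes (34.4%) both IFN-γ arrays lay above both medium arrays, against 9.59% of all genes: Ccnd2, Ccnd3, Cdc25a, Mcm2, Mcm5, Mcm7, Rrm1, Tk1, Cdc20, Aurkb and Top2a. In 1, Cdkn1a, both lay below, against 9.6% of all genes, with a difference of -0.06. The second Cdkn1a probe set disagrees: both of its IFN-γ arrays lay above both medium arrays, with a difference of 0.33 (SE 0.12, limma adjusted p = 0.9998). None of these genes passed. Ccnd3 read 8.35 and 8.28 in medium, against 8.54 and 8.68 with IFN-γ, a difference of 0.29 (SE 0.14, limma adjusted p = 0.9998). Mcm5, at 9.23 and 9.01 in medium against 9.43 and 9.40 with IFN-γ, also differed by 0.29 (SE 0.12, limma adjusted p = 0.9998, with the block 0.356). Mcm2 and Top2a had the same size, 0.29 with SE 0.11 and 0.14. The dimmer probe set of Mcm5 disagrees with its brighter one, with a difference of -0.05 (SE 0.14).

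By role, the median difference under IFN-γ at 16 hours was 0.08 in the cyclins, 0.02 in the kinases and phosphatases, 0.20 in the licensing genes and 0.13 in the genes of mitosis, and no test compares them. Ccnd3 had the largest difference between the effects, 0.42 (SE 0.20, limma adjusted p = 0.9998), from -0.13 at 4 hours to 0.29 at 16 hours. The intervals of the licensing genes at 16 hours allow a rise of up to 0.59 in Mcm3 and a fall of no more than 0.34 in Mcm4, the lowest of the 7.

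**Figure D4:**
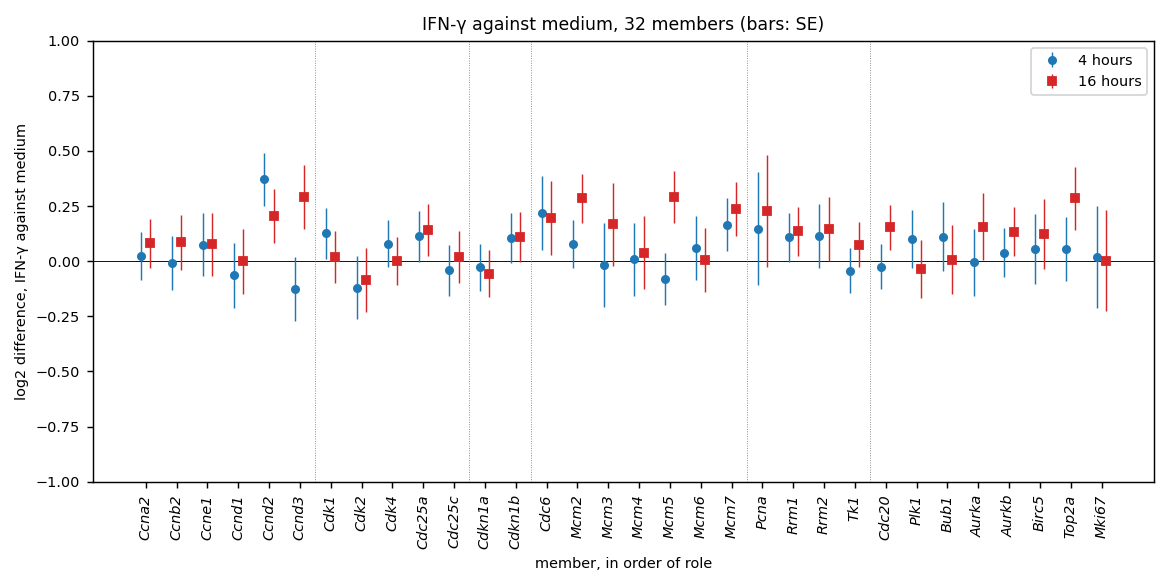
Log2 difference of IFN-γ against medium (vertical axis) at 4 hours (blue circles) and 16 hours (red squares) for each of the 32 genes, in order of role, with the SE as bars and dotted lines between roles. All points lie between -0.13 (Ccnd3 at 4 hours) and 0.37 (Ccnd2 at 4 hours), and none passed the test.

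At 4 hours, where 0.279% of all genes were called higher, IFN-γ raised 2 of the 132 further genes of the cell cycle and replication. They were Samhd1, which breaks down deoxynucleotides and is known as an interferon-induced gene (0.79, SE 0.11, limma adjusted p = 0.0188), and Mxd1, an antagonist of MYC (0.91, SE 0.14, limma adjusted p = 0.0408). At 16 hours Samhd1 was raised (0.84, limma adjusted p = 0.0166) and no other gene of these lists was called, against 0.182% of all genes called higher. A second probe set of Samhd1 lay below the antisense level on all 8 arrays and was not called. With the block the counts were the same, 2 and 1, where 0.861% and 0.509% of all genes were called higher. The 20 fork genes had a median difference of 0.07 at 4 hours and 0.12 at 16 hours, and none was called.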

How the data were processed

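Gene expression was measured on 8 Affymetrix arrays, 2 in each of 4 groups, which were read from the sample titles. The authors deposited 1 intensity per probe set and array, from 2.65 to 12523.5, so on a linear scale. Per the submitters' processing notes the tool was RMA. Which version and which settings were used is not given in the sources used here. Log2 was taken with no pseudocount and no further normalization. No scanner file was used here. The table holds 12488 probe sets; 66 are array controls and were set aside, so 12422 were tested.

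Genes were named from the platform annotation: 10833 probe sets had 1 symbol, 396 had several and 1193 had none listed and are unnamed here. Of the 10833, 10817 matched a RefSeq table by gene number. No coordinates are given for probe sets. Promoter windows came from RefSeq, assembly GRCm38.p6, and those of Ccnd1, Ccnd2, Ccna2, Cdc25c, Aurkb and Mcm4 were not used here.

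Two-sided moderated tests (lmFit, contrasts, eBayes) were run in limma 3.58.1 under R 4.3.3, with the 4 group means in 1 fit, with Benjamini-Hochberg adjustment over the 12422 probe sets and a threshold of 0.05, for 5 comparisons. Lists are described by counts and medians with no test of their own. The members and all lists were chosen with earlier results of these data known. Genes were given in full where called in any comparison or where among the brightest pair of their role, and the rest by range, with a few named by array or value for their role after their values were seen, as were E2f1 and Cdkn3. At most 4 called genes of a further list were named. The statistics were checked on simulated data. Figures were drawn with matplotlib 3.10.9.

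To check whether the replicate numbers pair the arrays, the difference between replicates 2 and 1 was correlated for each pair of groups. The 6 coefficients ran from 0.367 to 0.740, so replicates of a number moved together; this pairing is read from the values, since no label states it. Blocked counts stand beside the main counts in both time comparisons. The precision is limited by the number of arrays.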

Additional observations from a re-analysis of the deposited data

How the results depend on the processing

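The settings varied were the normalization (quantile, or centring on array medians), a filter on the dimmest 40% of probe sets, the prior of the spread (trended and robust), the arrays in the fit (only the 4 compared), the replicate block, the mean of a gene's probe sets, the threshold (adjusted p under 0.01) and the omission of single arrays. Leaving out both 16-hour arrays of replicate 1 was chosen after seeing the data. For IFN-γ at 4 and 16 hours and for the difference between these effects, the count of the 32 genes called was 0 under every alternative run. For time in medium, the count of 9 became 14 with the replicate block and 2 at an adjusted p under 0.01, and ranged from 0 (without either medium array at 4 hours) to 11 (without either IFN-γ array at 16 hours) with arrays left out. For time with IFN-γ, the count of 5 became 3 with median centring, 13 with the replicate block, 2 with only the 4 arrays compared, 1 at an adjusted p under 0.01 and 2 without both 16-hour arrays of replicate 1, and ranged from 0 (without either IFN-γ array at 4 hours) to 10 (without replicate 2 of IFN-γ at 16 hours) with arrays left out. Its median of -0.35 became -0.19 with 1 mean value per gene and -0.22 without both 16-hour arrays of replicate 1, with a range from -0.45 to -0.22 with arrays left out. A group reduced to 1 array took its spread from the others. No called difference changed sign under these alternatives. Cdkn1a was called under 15 of 17 alternatives in both time comparisons, and lost without either 4-hour array of the comparison, with limma adjusted p up to 0.103 in medium and 0.118 with IFN-γ. Of the other genes called in medium, Mcm5 was called under 14, Cdc6 under 13, Mcm2 and Mcm7 under 12, Mcm3 and Mcm4 under 11, and Rrm2 and Top2a under 10. Mcm5 was lost without either medium array at 4 hours and with the mean of its probe sets. With IFN-γ, Cdc6 was called under 11, Mcm4 under 8, and Mcm7 and Rrm2 under 6. The cause of these losses was not tested, apart from the stricter threshold. A background correction and a slide effect could not be tried on the deposited values.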
